A study of Homo sapiens with 14 samples.

Results

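The genes described here are RN7SK, RN7SL1, RN7SL2, RMRP and RPPH1, which encode structural noncoding RNAs made by RNA polymerase III (Pol III). These 5 genes were taken by gene name from the deposited table of read counts and match 6 of its 58780 rows, because RN7SK has a pair of rows. Their RNAs are abundant in human cells, but in this table only RN7SL2 was. RN7SL2 held 70933 counts over the 14 libraries, RMRP held 2, and the other 4 rows held 0 in every library. Each row with few or no counts shares nearly all of its exonic bases with another annotated gene, as set out below. Only RN7SL2 had enough counts to be tested. It rose 1.87-fold from 15 min to 3 h of the inhibitor MS023, the only 1 of 15 comparisons in which it was called. In that comparison 12.0% of all genes tested were called, and the RN7SL2 call was lost with a second method.

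The cells were A549, an established human lung adenocarcinoma line, and the assay was precision run-on sequencing (PRO-seq), which captures RNA that engaged polymerases extend with labelled nucleotides in permeabilized cells. GSK591 blocks PRMT5, an enzyme that dimethylates arginine symmetrically, MS023 blocks the type I arginine methyltransferases, and dexamethasone (Dex) is a synthetic glucocorticoid. The 7 groups of 2 libraries were untreated cells under a 15 min label, 1 µM GSK591 for 15 min, 1 µM MS023 for 15 min, 1 µM GSK591 with 100 nM Dex for 15 min, 1 µM MS023 with 100 nM Dex for 15 min, 1 µM GSK591 for 3 h and 1 µM MS023 for 3 h. All groups shared 0.01% DMSO. Cells given Dex alone and untreated cells of 3 h are not analysed here, so a change between 15 min and 3 h of an inhibitor cannot be told apart from an effect of time. The labels do not say that replicates came from separate cultures, so p-values measure only the spread between libraries, which may be technical.

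Total counts ranged from 5768312 to 9606938 per library, and transcripts of the 37 mitochondrial genes took 39.8% to 58.0% of them. The 8 epithelial and A549 markers summed to 1310 to 1829 CPM in each library (counts scaled to a library of 1000000 after TMM), led by KRT7, KRT8 and AKR1C1, while EPCAM and CDH1 were at or under 4.07 CPM. The 13 markers of leukocytes, endothelium, fibroblasts and erythroid cells summed to at most 8.65 CPM per type. Members held 0.0308% to 0.0922% of all counts in a library (exact binomial 95% intervals of 0.0295 to 0.0321% and 0.0900 to 0.0944% for these extremes), and nearly all of that was RN7SL2.

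Pol III makes short noncoding RNAs, among them transfer RNAs, the 5S ribosomal RNA and the RNAs of the members, which work as parts of RNA-protein complexes. 7SK RNA, from RN7SK, holds the elongation kinase P-TEFb inactive together with HEXIM proteins, so it acts on pause release by RNA polymerase II. 7SL RNA, from RN7SL1 and RN7SL2, is the scaffold of the signal recognition particle (SRP), which brings ribosomes making secreted proteins to the endoplasmic reticulum, and Alu repeats descend from it. RMRP is the RNA of RNase MRP, which cuts precursor ribosomal RNA, and RPPH1 is the catalytic RNA of RNase P, which trims the leader of precursor transfer RNAs. The promoters of RN7SK, RMRP and RPPH1 lie upstream of the gene, whereas 7SL genes combine an upstream element with one inside the transcribed part.

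The 7SL genes are described first because RN7SL2 carries nearly all member counts while its near-copy RN7SL1 carries none. In build GRCh38 and GENCODE release 29, RN7SL2 lies at chr14:49862550-49862849 on the minus strand, RN7SL1 at chr14:49586580-49586878 on the plus strand and RN7SL3, the next closest annotated gene, at chr14:49853616-49853914 on the minus strand.

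Aligned end to end, RN7SL1 was 98.3% and RN7SL3 96% identical to RN7SL2. The pseudogenes RN7SL4P and RN7SL5P were 86.9% and 85.1% identical to RN7SL2. Of the 226 stretches of 75 bases in RN7SL2, 84.1% also occur in a gene elsewhere in the annotation, and for RN7SL1 the share was 77.3%. For RN7SK the shares of its rows were 63.4% and 63.8%, with many RN7SK pseudogenes in the annotation, and for RMRP and RPPH1 they were 0. A read from 1 of the 7SL genes can therefore fit another, and whether counts of RN7SL2 include reads of its copies was not tested.

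Each of the 4 members with few or no counts lies under another annotated gene. RN7SK has a 331-base row (ENSG00000202198.1, chr6:52995620-52995950, plus strand) and a 328-base row (ENSG00000283293.1, chr6:52995621-52995948), so that the shorter lies wholly inside the longer, which keeps 3 bases of its own. Both rows held 0 counts in all 14 libraries. RN7SL1 (ENSG00000276168.1, 299 bases) lies wholly inside AL139099.4, a 300-base noncoding model that also held 0 counts. RMRP (ENSG00000269900.3, chr9:35657751-35658018, minus strand, 268 bases) has a second model of 264 bases inside it, which leaves 4 bases free. The longer RMRP row held 1 count in replicate 1 of MS023 with Dex and 1 in replicate 2 of MS023 at 3 h, and the shorter, which has no name in the table, held 0. RPPH1 (ENSG00000277209.1, chr14:20343075-20343407, minus strand, 333 bases) lies wholly inside the 638-base exon of AL355075.4 on the same strand and held 0 counts. RN7SL2 (ENSG00000274012.1, 300 bases) shares no exonic base with another gene and lies in an intron of the long noncoding RNA AL627171.2 on the same strand.

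**Figure D1:**
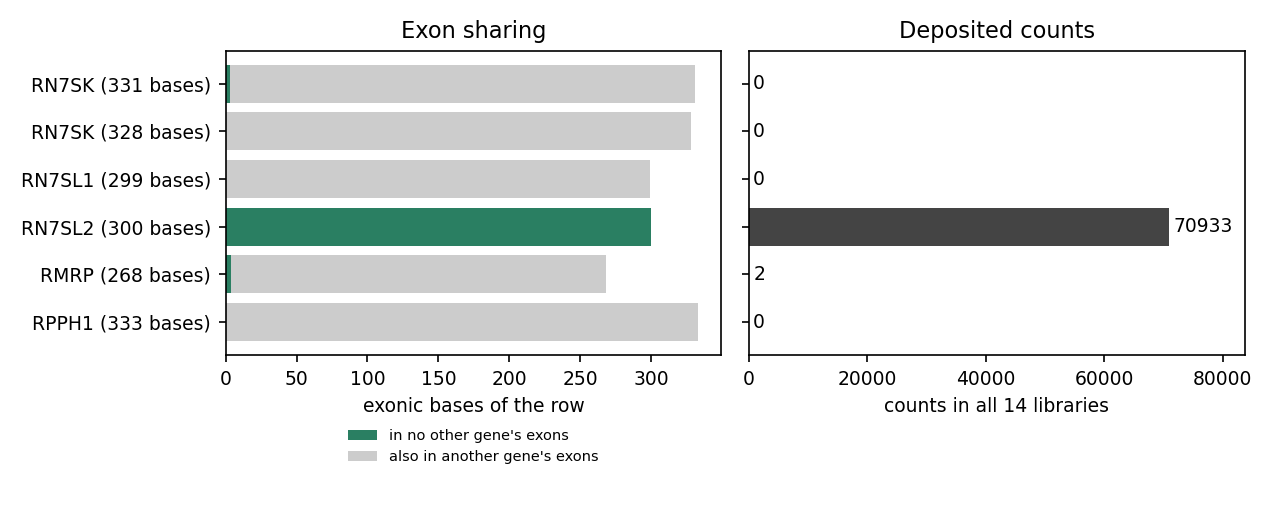
Exonic bases of the 6 rows of the 5 members (left; bases in no other gene's exons in green, shared bases in grey) and their counts summed over 14 libraries (right). RN7SL2, with 300 free bases, holds 70933 counts, and rows with 0 to 4 free bases hold 0 to 2.

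The same pattern held across the table. All 1139 genes whose exons lie wholly inside exons of another gene on the same strand had 0 counts in every library, and so had all 710 genes lying inside exons of a gene on the other strand. Among 198 genes with 1 to 10 free bases, 73.2% had 0 counts. Among 41795 genes that share no exonic base the share was 27.4%, and among the 3617 of these with 250 to 350 exonic bases, the size of the members, it was 42.0%. No gene lying wholly inside such exons thus received a read, on either strand. RN7SL1, RPPH1 and the shorter RN7SK row are of that kind, and the longer RN7SK row and RMRP, with 3 and 4 free bases, are in the class with 1 to 10. Their values are therefore not read here as levels of transcription. A count of 0 allows up to 3 counts per library, or 0.316 to 0.458 CPM depending on the library, for reads that could be assigned (counting error only).

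**Figure D2:**
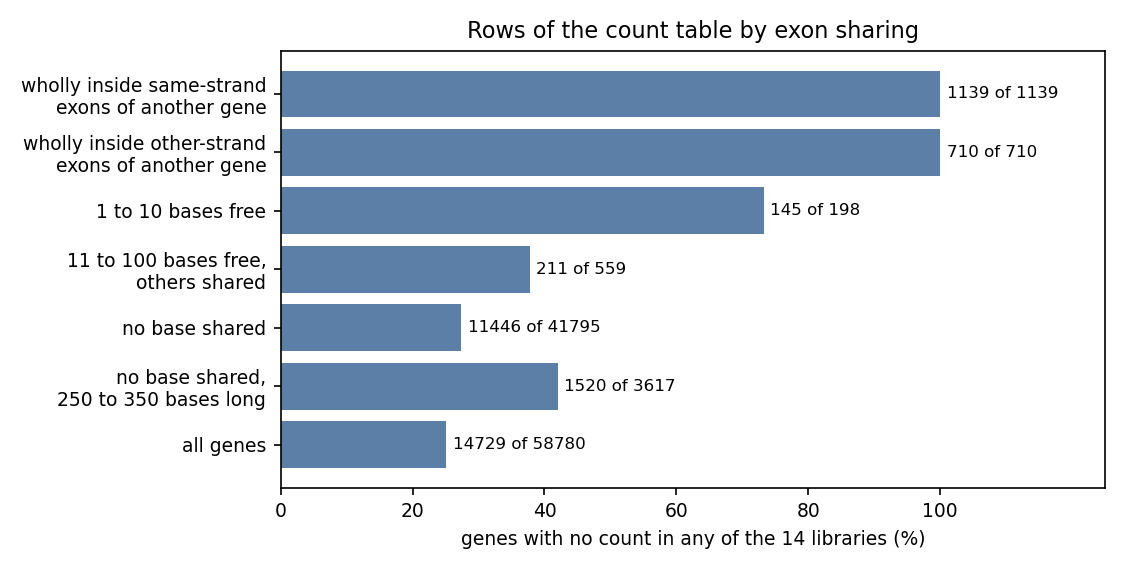
Share of rows with no count in any of the 14 libraries, by how far a gene's exons are shared with other annotated genes. All 1139 and 710 genes wholly inside another gene's exons have no count, against 27.4% of the 41795 genes that share no base.

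The gene around RPPH1 gave the nearest reading of that locus. AL355075.4 has 201 bases outside RPPH1 and outside other genes, and held 403 counts in all, between 15 and 51 per library. Its level was 3.65 and 4.69 CPM in the untreated libraries and 1.79 and 1.74 CPM after 3 h of GSK591. It fell by 1.23 on the log2 scale there (SE 0.34, edgeR adjusted p 0.0127), its only call in 15 comparisons. These are reads outside the RPPH1 gene, so they are not a value of RPPH1 itself. The strand setting is not given, and genes inside exons of the other strand held no counts. The reads may therefore come from either strand.

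RN7SL2 was one of the strongest nuclear signals. Its mean over the libraries was 603.5 CPM, against a median of 8.28 CPM over the 21910 genes tested, which ranked it 23rd among nuclear genes and 39th when mitochondrial genes were included. Per length, it stood at 2246 CPM per kb of exon in untreated cells. On that scale RN7SL3 was at 271, RN7SL5P at 406 and RN7SL4P at 235 CPM per kb, and the Pol II small nuclear RNA genes RNU2-1 and RNU1-1, whose RNAs form the spliceosome, at 154 and 163. Its host AL627171.2, whose exons lie elsewhere, was at 3.09 CPM per kb, and its 588 counts were not called in any of the 15 comparisons.

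RN7SL2 was highest after 3 h of MS023 and, by group mean, lowest in the 15 min groups given Dex or MS023. In untreated cells it stood at 713 and 635 CPM in replicates 1 and 2. After 15 min of GSK591 the libraries were at 456 and 707 CPM, and after 15 min of MS023 at 483 and 475. The first of these groups overlaps the untreated range, and both libraries of the second lie below it.

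With Dex the libraries of each group were far apart. GSK591 with Dex gave 317 and 628 CPM, and MS023 with Dex gave 330 and 655 CPM. Replicate 1 was the low library in both groups, and the SDs were 220 and 230 CPM at group means of 473 and 493 CPM. After 3 h, GSK591 gave 562 and 698 CPM and MS023 gave 858 and 932 CPM, the highest pair of the series. By group mean the order was MS023 at 3 h (895 ± 52 CPM), untreated (674 ± 55.5), GSK591 at 3 h (630 ± 96.4), GSK591 at 15 min (581 ± 177), MS023 with Dex (493 ± 230), MS023 at 15 min (479 ± 5.65) and GSK591 with Dex (473 ± 220; SD, n = 2 each). Between neighbours in this order, only MS023 at 3 h and untreated cells have libraries that do not overlap, and that difference did not pass the test (log2 fold change 0.41 ± 0.20 SE, edgeR adjusted p 0.259).

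**Figure D3:**
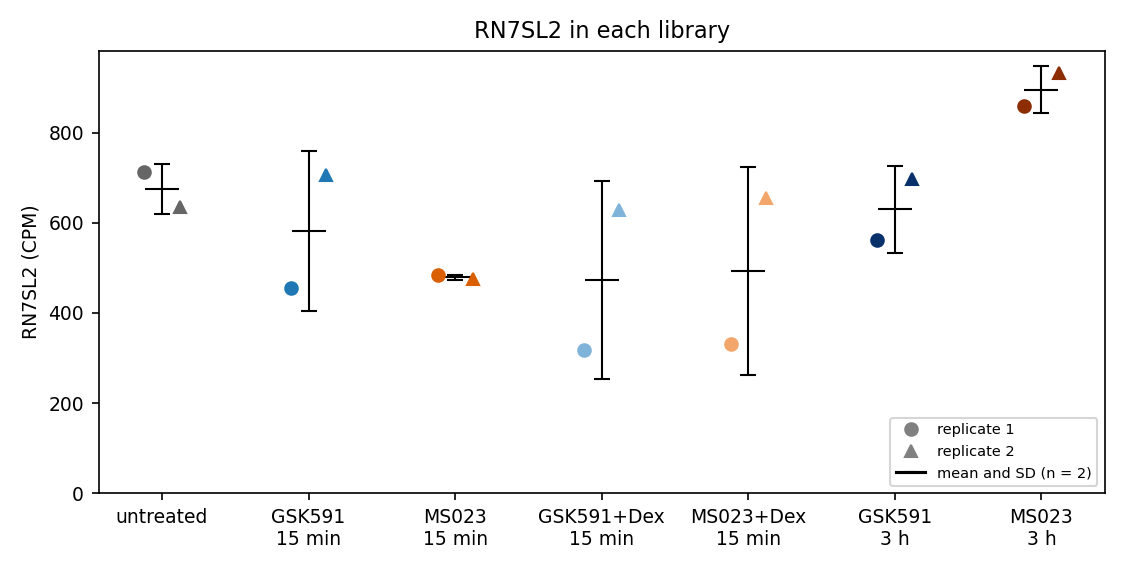
RN7SL2 level in CPM in each of the 14 libraries (circles replicate 1, triangles replicate 2; bars show the group mean and SD of 2 libraries). The MS023 3 h libraries, at 858 and 932 CPM, lie above all others, and the groups given Dex have libraries at 317 and 628 CPM and at 330 and 655 CPM.

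Calls were made with edgeR's quasi-likelihood test at a Benjamini-Hochberg adjusted p under 0.05 over the 21910 genes tested, and of the 6 member rows only RN7SL2 passed the filter on low counts. Against untreated cells, RN7SL2 was called in 0 of 6 comparisons, with 3 of them at an unadjusted p under 0.05, and DESeq2 also called 0. At 15 min, 0.306% of all genes were called with GSK591 and 0.196% with MS023. Adding Dex brought this to 5.85% and 7.64%, and the 3 h treatments to 11.0% and 7.63%, in the same order. With 1 testable member, a count of 0 is near what such shares give.

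The differences from untreated cells, though not called, were mostly below 0. The log2 fold change of RN7SL2 was -0.21 ± 0.21 (SE) with GSK591 at 15 min (adjusted p 0.949), and -0.49 ± 0.21 with MS023 at 15 min (adjusted p 0.517). With Dex it was -0.51 ± 0.21 beside GSK591 (adjusted p 0.151) and -0.45 ± 0.21 beside MS023 (adjusted p 0.202). GSK591 at 3 h gave -0.10 ± 0.20 (adjusted p 0.833). These 6 comparisons share the untreated libraries. Where 1 library was left out, the values with Dex moved most: without replicate 2 of GSK591 with Dex the difference was -1.08 (adjusted p 5.88e-04), and without replicate 2 of MS023 with Dex it was -1.03 (adjusted p 0.00621). Without replicate 1 of the same groups the differences were -0.11 (adjusted p 0.819) and -0.04 (adjusted p 0.96).

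RN7SL2 rose between 15 min and 3 h of MS023. Its log2 fold change was 0.90 ± 0.21 (SE), a fold of 1.87, with an edgeR adjusted p of 0.00223, from 483 and 475 CPM to 858 and 932 CPM, with no overlap of the libraries. In that comparison 12.0% of all genes were called. DESeq2 gave nearly the same size, 0.91, but a larger SE of 0.41 and an adjusted p of 0.175, which ends the call. Of 23 alternative settings for this gene 22 kept it, with log2 fold changes of 0.75 to 1.02 over all 23. Of these settings, 14 each left out 1 library, mostly one outside the groups compared, and so could change little. For GSK591 the change between the times was 0.12 ± 0.21 (adjusted p 0.821; 6.40% of all genes called). The direct test of whether the change over time differed between the inhibitors gave -0.79 ± 0.29 for GSK591 minus MS023 (adjusted p 0.290; 0.561% of genes called), so a difference was not shown. With both replicate 1 libraries given Dex left out, a setting that was not planned, the difference was also -0.79. Those libraries belong to none of the groups in this test, so the setting adds no evidence on the difference itself.

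Dex added to an inhibitor was not seen to move RN7SL2. Beside GSK591 the log2 fold change was -0.30 ± 0.21 (adjusted p 0.506) and beside MS023 it was 0.04 ± 0.21 (adjusted p 0.945). The libraries overlapped in both comparisons, in which 3.70% and 8.97% of genes were called, and edgeR called the member in 0 of 2, at 0 unadjusted p under 0.05 and 0 calls by DESeq2. Beside GSK591 the value rested on the spread of the Dex libraries, at 0.11 without replicate 1 and -0.86 (adjusted p 0.0154) without replicate 2 of that group. Beside MS023 the value likewise turned on them, at 0.46 (adjusted p 0.278) without replicate 1 and -0.53 (adjusted p 0.228) without replicate 2 of the group given both.

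Between the inhibitors, edgeR called RN7SL2 in 0 of 4 comparisons, with 1 unadjusted p under 0.05 and 0 calls by DESeq2. GSK591 against MS023 gave 0.28 ± 0.21 at 15 min (adjusted p 0.743; 1.10% of genes called). At 3 h it gave -0.51 ± 0.21 (adjusted p 0.740; 0% of genes called, with 1319 at an unadjusted p under 0.05 and 1 called by DESeq2), although both GSK591 libraries lay below both MS023 libraries. With Dex the inhibitors differed by -0.06 ± 0.21 (adjusted p 0.966; 0% of genes called, with 1659 at an unadjusted p under 0.05 and 0 called by DESeq2). The difference between the Dex effects was -0.34 ± 0.29 (adjusted p 0.762; 1.15% of genes called).

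The closest relatives of RN7SL2 gave values much like it. RN7SL3 rose by 0.93 ± 0.19 on the log2 scale from 15 min to 3 h of MS023 (edgeR adjusted p 7.78e-04), from 51.9 and 60.3 CPM to 85.8 and 128 CPM. RN7SL4P rose by 0.92 ± 0.21 (adjusted p 0.00196) and RN7SL5P by 0.85 ± 0.21 (adjusted p 0.00417) in the same comparison. DESeq2 called none of these 3, at adjusted p of 0.143, 0.175 and 0.248, and without replicate 2 of MS023 at 3 h edgeR did not call them either, at adjusted p of 0.0668, 0.113 and 0.212. Without replicate 1 of MS023 at 15 min it lost RN7SL4P and RN7SL5P (adjusted p 0.0741 and 0.102). Since reads can fit several of these genes, they are not independent measurements of RN7SL2.

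RN7SL4P was also lower after MS023 for 15 min, at 33.5 and 38.5 CPM against 71.6 and 66.8 CPM in untreated cells (log2 fold change -0.95 ± 0.21, edgeR adjusted p 0.0282), and after MS023 with Dex, at 34.5 and 52.8 CPM (-0.66 ± 0.20, adjusted p 0.0291). DESeq2 kept neither call, at adjusted p of 0.489 and 0.496. The first was also lost without any 1 of the 4 libraries compared (edgeR adjusted p 0.133 to 0.502), and the second without either untreated library or replicate 1 of MS023 with Dex (0.0942 to 0.481). Counts of RN7SL1, RN7SL2, RN7SL3 and the 677 pseudogenes were also added together as 1 feature, a setting that was not planned. The family rose by 0.74 ± 0.18 from 15 min to 3 h of MS023 (edgeR adjusted p 0.00396) and was not called in the other 14 comparisons. RN7SL2 is part of this sum, so the rise is not separate evidence. RN7SL2 held 48.1% to 64.8% of the family's counts in a library, lowest in the replicate 1 libraries given Dex (49.0% and 48.1%).

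**Figure D4:**
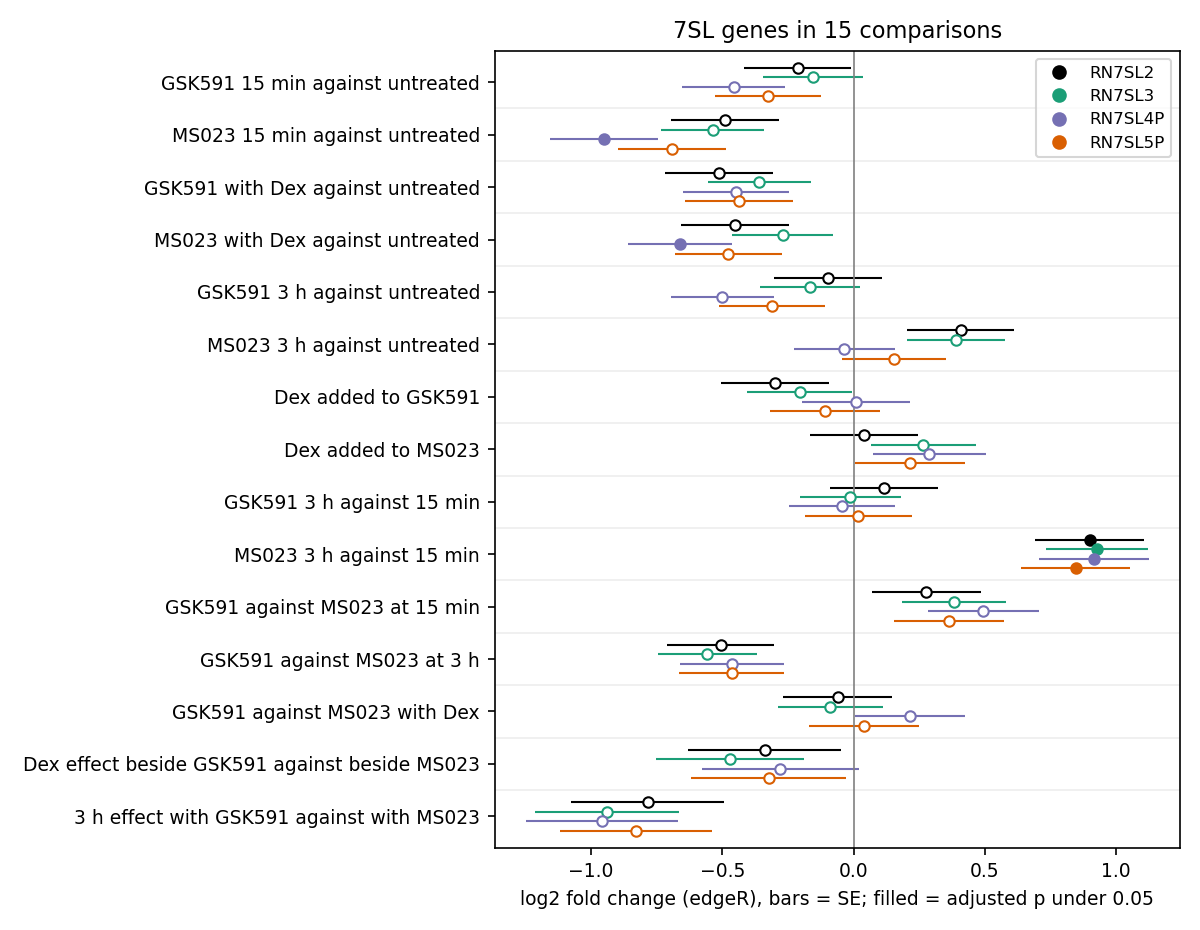
Log2 fold changes (edgeR; bars are SE, filled points have an adjusted p under 0.05) of RN7SL2, RN7SL3, RN7SL4P and RN7SL5P in 15 comparisons. All 4 rose between 15 min and 3 h of MS023, by 0.85 to 0.93, and RN7SL2 has no other filled point.

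Among 9964 genes averaging 10 CPM or more, those whose log2 CPM over the 14 libraries was most like that of RN7SL2 were RN7SL3 (Pearson's r 0.93), the histone pseudogene H3F3AP2 (0.91) and RN7SL5P (0.91). These values describe 14 libraries that fall into 7 treatment groups, and reads can fit several of the 7SL genes.

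Of the 7SL pseudogenes, only RN7SL472P was called higher than in untreated cells at 3 h of both inhibitors. RN7SL472P, 82.1% identical to RN7SL2, stood at 4.72 and 3.49 CPM in untreated cells, 24.3 and 17.8 CPM after 3 h of GSK591 and 20.9 and 17.95 CPM after 3 h of MS023. Its log2 fold changes were 2.36 ± 0.20 and 2.24 ± 0.21 (edgeR adjusted p 3.66e-11 and 2.70e-10). Over all alternatives they lay between 2.06 and 2.60. Of the 73 7SL pseudogenes tested of 677, 1 was called higher and 0 lower with GSK591 at 3 h against untreated cells. With MS023 at 3 h, 2 were higher and 0 lower. The medians were -0.19 and -0.16, and 11.0% and 7.63% of all genes were called, in that order. The median of the 73 from 15 min to 3 h of MS023 was 0.12, beside -0.01 over all genes tested. In that comparison, where 12.0% of all genes were called, 5 of the 73 were higher and 0 lower. RN7SL472P was among these 5 (2.04 ± 0.21, edgeR adjusted p 2.38e-09), as were RN7SL4P and RN7SL5P. With Dex added to MS023, RN7SL472P was lower (-1.04 ± 0.30, edgeR adjusted p 0.0211).

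Over the 15 comparisons together, 4.44% of all gene tests were called by edgeR, 14.8% had an unadjusted p under 0.05, and DESeq2 called 2.23%. These shares stand beside the list counts that follow. The 7 genes of the 7SK complex and P-TEFb gave 14 calls in 105 tests over the 15 comparisons (31 at an unadjusted p under 0.05, 12 by DESeq2). HEXIM1, which holds P-TEFb on 7SK RNA, rose with GSK591 at 3 h from 175 and 164 CPM in untreated cells to 246 and 221 CPM (log2 fold change 0.46 ± 0.10, edgeR adjusted p 0.00140). With MS023 at 3 h HEXIM1 was at 205 and 222 CPM (0.33 ± 0.10, adjusted p 0.0337), a call that scaling by library size alone did not keep (adjusted p 0.119). The first call was lost without untreated replicate 2 or replicate 1 of GSK591 at 3 h (adjusted p 0.0548 and 0.0525), and the second without any 1 of its 4 libraries (0.0702 to 0.284). At 3 h of GSK591 against untreated cells, 1 of these 7 genes was higher and 2 were lower. Their median was -0.23, beside -0.0086 over all genes. The 2 lower were HEXIM2 (-0.36 ± 0.10, edgeR adjusted p 0.00993) and CCNT2 (-0.39 ± 0.13, adjusted p 0.0419). At 3 h of MS023, 1 was higher and 0 lower. MEPCE, which caps 7SK RNA, fell when Dex was added to GSK591, from 103 and 102 CPM to 68.5 and 66.7 CPM (-0.60 ± 0.10, adjusted p 1.02e-04). In that comparison 2 of the 7 genes were lower and 0 higher, at a median of -0.31, beside -0.0045 over all genes. With Dex added to MS023, 1 of the 7 was lower and 0 higher. The lower gene was HEXIM1 (-0.41 ± 0.10, edgeR adjusted p 0.0069).

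The 8 SRP protein genes gave 1 call in 120 tests (11 at an unadjusted p under 0.05, 0 by DESeq2), and the 10 tested RNase P and RNase MRP protein genes gave 1 in 150 (12 and 0). The 13 Pol III subunit genes gave 2 calls in 195 tests (20 and 0), and the 20 genes for Pol III initiation factors, the repressor MAF1 and the La protein gave 12 in 300 (38 and 6). MAF1, which holds Pol III off its genes in stress, fell with Dex beside GSK591 from 47.4 and 43.9 CPM to 28.8 and 25.6 CPM (log2 fold change -0.74 ± 0.12, edgeR adjusted p 1.11e-04). It rose from 15 min to 3 h of MS023, from 31.3 and 37.0 CPM to 57.3 and 49.4 CPM (0.66 ± 0.12, adjusted p 6.20e-05). In that comparison 1 of the 20 genes was higher and 1 lower, SNAPC5 (-0.40 ± 0.10, edgeR adjusted p 0.0043). The median of the 20 was -0.08, beside -0.01 over all genes. Against untreated cells, MAF1 was also higher at 3 h of GSK591 and MS023 (0.45 and 0.43, edgeR adjusted p 0.00474 and 0.00852). It was lower with GSK591 and Dex (-0.54, edgeR adjusted p 0.00409). RN7SL2 rose from 15 min to 3 h of MS023 and was not called in the other comparisons named here for MAF1. A link between these genes was not tested.

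Other Pol III RNAs ranged from rows with almost no counts to RN7SL3. The 19 tested of 32 rows gave 85 calls in 285 tests (156 at an unadjusted p under 0.05, 31 by DESeq2), all but those of RN7SL3 and BCYRN1 in near-identical RNA5S genes that are not independent, against the 4.44% of all gene tests. Of the 32 rows, 14 held fewer than 100 counts in all, among them the Y RNA genes, all U6 genes listed and RNU6ATAC. The 16 RNA5S genes, which encode the 5S ribosomal RNA, shared nearly all of their sequence with each other, and each held 361 to 536 counts. For 15 of the 16, every stretch of 75 bases occurs in another gene, and they held counts all the same. Added together, a choice made after their values were seen, the RNA5S genes stood at 32.8 and 44.1 CPM in untreated cells and 28.8 and 45.9 CPM after 15 min of MS023. In every other group both libraries lay above these, from 65.9 to 86.9 CPM.

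The RNA5S sum was higher than in untreated cells by 0.99 ± 0.14 on the log2 scale with GSK591 at 15 min (edgeR adjusted p 5.76e-05), 0.96 ± 0.14 and 1.10 ± 0.14 with Dex beside GSK591 and MS023, and 1.11 ± 0.14 and 1.12 ± 0.14 at 3 h of GSK591 and MS023 (adjusted p at most 1.40e-05 for these 4). With MS023 at 15 min it was -0.07 ± 0.15 (adjusted p 0.961). The replicate 1 libraries given Dex, which were low for RN7SL2, had 5S sums of 83.2 and 79.8 CPM, above both untreated libraries. Among the 12 tested rows of Pol II small nuclear RNAs, edgeR called 0 in 180 tests (11 at an unadjusted p under 0.05, 0 by DESeq2). RNU5E-1, RNU7-1 and RNU12, whose exonic bases all lie in other genes' exons like those of RN7SL1 and RPPH1, also held 0 counts. The 73 tested 7SL pseudogenes gave 17 calls in 1095 tests (106 at an unadjusted p under 0.05, 3 by DESeq2) and the 14 tested 7SK pseudogenes 7 in 210 (26 and 0).

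**Figure D5:**
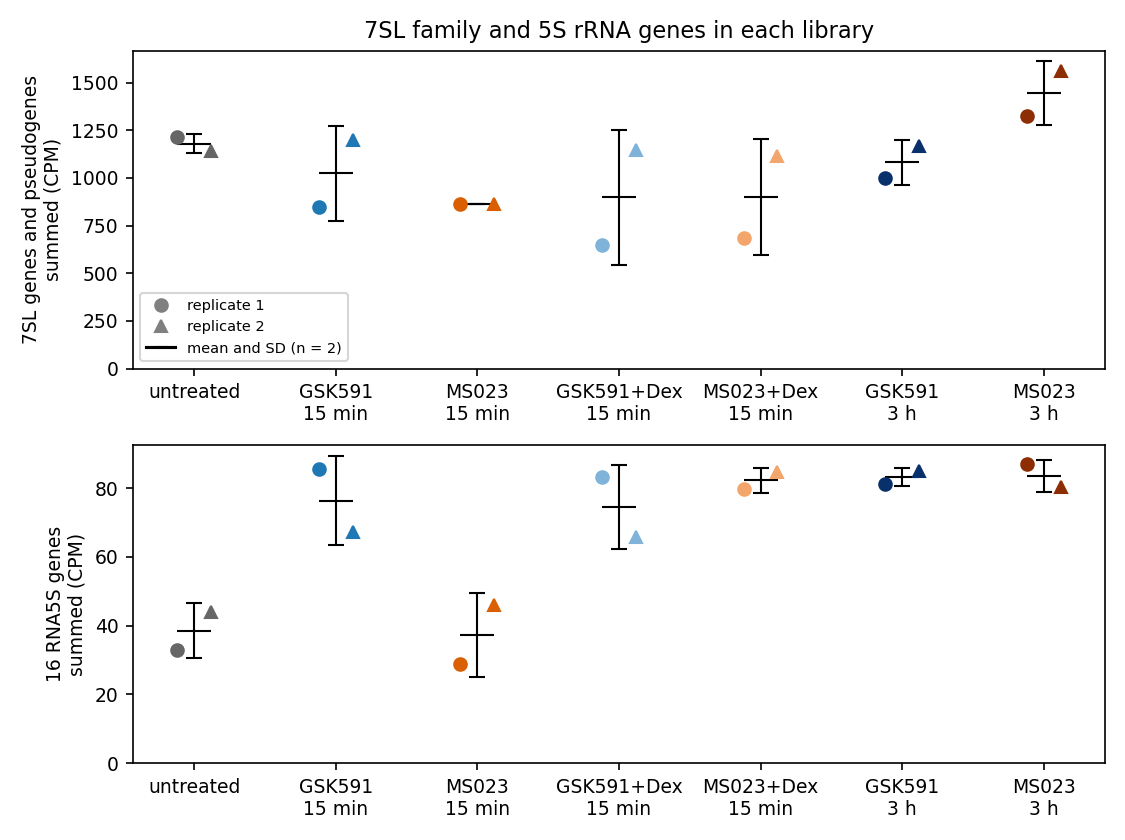
Summed CPM of all 7SL genes and pseudogenes (top) and of the 16 RNA5S genes (bottom) in each of the 14 libraries (circles replicate 1, triangles replicate 2; bars are group mean and SD of 2 libraries). The RNA5S sum is 28.8 to 45.9 CPM in untreated and MS023 15 min libraries and 65.9 to 86.9 CPM elsewhere, while the 7SL sum is highest at 3 h of MS023.

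The authors' own comparisons hold the same gaps. In the authors' deposited tables, RN7SK, RN7SL1 and RPPH1 have a mean level of 0 and no test in all 6 comparisons with the control. For RN7SL2 the authors' deposited tables give log2 fold changes of -0.14 with GSK591 and -0.41 with MS023 at 15 min, -0.43 and -0.37 with Dex beside GSK591 and MS023, and -0.0045 and 0.50 at 3 h. The standard errors in the authors' deposited tables were 0.53 for each and the adjusted p was 0.827 or higher.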

How the data were processed

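Read counts per gene (whole numbers, 58780 rows, 14 columns) were deposited by the authors. Subread, featureCounts 2.0.1, DESeq2 and build hg38 are named in the submitters' processing notes. The aligner, strand setting and handling of reads that fit several places are not given in the sources used here. In 6 tables deposited by the authors, DESeq2 comparisons with the control give a mean signal (baseMean), a log2 fold change with its standard error, a test score and p-values, per the file headers.

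All identifiers matched GENCODE release 29, which supplied coordinates, transcripts and symbols left blank. Counts were tested with edgeR 4.0.16 (R 4.3.3) by the quasi-likelihood test, TMM scaling and edgeR's expression filter. All 14 libraries entered 1 fit with 1 coefficient per group, and p-values were adjusted over the genes tested in each comparison. CPM values use TMM-scaled library sizes. The files hold no spike-in, and changes are thus relative to the bulk of genes. The test was tried on simulated data. DESeq2 1.42.0, other scalings, no filter, the compared groups alone, a replicate block and leaving out each library were alternatives. Within groups, replicates differed by more than sampling noise.

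Members and lists were chosen with earlier results of these data known. Members are always named, and at most 3 called genes per list and comparison. H3F3AP2 was named for likeness. Genes over members, 7SL relatives and snRNA rows named for levels or zeros were chosen after their values were seen. Sequences of the 7SL genes are not reported here. Exon sharing counts bases in exons of any other gene on either strand. Intervals cover counting error only, since reads are not independent molecules.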

Additional observations from a re-analysis of the deposited data

Results flagged for a closer look

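The change with Dex differed between the inhibitors at 3 RNA5S genes, in a direct test of the difference that called 1.15% of all genes. Beside GSK591 minus beside MS023, it was -2.22 on the log2 scale for RNA5S15 (edgeR adjusted p 0.00933), -1.72 (-1.715) for RNA5S12 (adjusted p 0.0412) and -1.49 for RNA5S7 (adjusted p 0.0446). These copies share their sequence, so they are not independent. The summed RNA5S genes differed by -1.20 ± 0.20 (SE; adjusted p 5.07e-04), and with MS023 alone for 15 min, the reference beside MS023, they stood at the untreated level. Such a difference was not particular to Dex. For the change from 15 min to 3 h, the sum differed by -1.07 ± 0.19 for GSK591 minus MS023 (edgeR adjusted p 0.00347). At 15 min without Dex, GSK591 against MS023 gave 1.06 ± 0.14 (edgeR adjusted p 6.06e-05). All of these comparisons use the same MS023 15 min libraries. Leaving out replicate 1 of MS023 at 15 min ended the calls, at -1.67, -1.90 and -1.42 (adjusted p 0.286, 0.227 and 0.325). Leaving out replicate 1 of GSK591 at 15 min, or replicate 2 of either group given Dex, also ended all 3.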

How the results depend on the processing

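The number of member calls, which can rest only on RN7SL2, was 0 against untreated cells and became 1 with library size alone (GSK591 with Dex), 4 with no count filter, 3 when only the groups compared were fitted, 1 with the replicate block and 1 with both Dex replicate 1 libraries left out. Leaving out each library in turn gave 0 to 1 there and 0 to 1 for Dex added (0 with all libraries). The 1 call for 3 h against 15 min became 0 with DESeq2. Between inhibitors the 0 became 1 with no count filter. The cause was not tested. Over all genes tested, same-numbered deviations correlated at -0.07 to 0.10 over 21 pairs of groups. At a median of 8.28 CPM per gene, counting noise could hide a pairing, so these values cannot tell whether replicates were paired. RN7SL2 itself was lower in replicate 1 in all groups but untreated cells and MS023 at 15 min. With the replicate block, RN7SL2 changed by 0.89 (adjusted p 3.31e-04) from 15 min to 3 h of MS023 and by -0.59 (adjusted p 0.0341) with GSK591 and Dex. Leaving out each library gave 0.86 to 0.96 for the former, called each time. Scaling by library size alone put the median log2 change of all genes at -0.21 for Dex added to GSK591, -0.19 for Dex added to MS023 and -0.16 for MS023 at 3 h against 15 min. Over all genes, DESeq2 called 1426 against edgeR's 2638 for MS023 at 3 h against 15 min, and 401 against 811 for Dex added to GSK591. Of 717 values of single genes or the 7SL sums under alternatives, 626 kept direction and stayed called or uncalled. Another 58 lost the call, 16 gained it, 17 uncalled ones changed sign and 0 called ones did. The 626 include values not called to begin with and fits without a library outside the comparison. The 58 could come only from called values. As a share of counts without mitochondrial genes, members held 0.0903% (GSK591 with Dex) to 0.184% (MS023 at 3 h) by group mean. With 2 libraries per group, only large or tight differences could be called.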
